A study of Homo sapiens with 12 samples.

Results

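The DNAJ or HSP40 proteins are the J proteins, the co-chaperones of the HSP70 chaperones. Genes were taken as members when they were protein-coding, had a symbol of class DNAJA, DNAJB or DNAJC and reached 10 or more counts in at least 3 of the 12 libraries. These criteria were met by 39 of the 57773 genes in the files, 4 of class DNAJA, 9 of class DNAJB and 26 of class DNAJC. Of 45 protein-coding symbols, 6 stayed under the rule, namely DNAJB13, DNAJB7, DNAJB8, DNAJC25-GNG10, DNAJC5B and DNAJC5G. Just inside was DNAJC12, with 10 or more counts in 10 of 12 libraries and 197 counts in all, and just outside was DNAJB13, with at most 8 counts in a library and 35 in all. A further 40 rows with such symbols, most of them pseudogenes and antisense transcripts, were not members.

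A J protein carries a J domain, whose conserved His-Pro-Asp motif stimulates ATP hydrolysis by HSP70 and so locks HSP70 onto an unfolded client. Classes A and B resemble bacterial DnaJ in part or in whole beyond the J domain, and many of them bind clients themselves, whereas class C shares only the J domain and mostly places HSP70 at one site, such as a ribosome, an import channel or a clathrin coat. Cytosolic J proteins work with HSPA8 and the heat-inducible HSPA1A, those in the lumen of the endoplasmic reticulum (ER) with HSPA5, also called BiP, and those of the mitochondrial matrix with HSPA9. Members were assigned to compartments from textbook knowledge, in part by the side on which the J domain works. The cytosol received 13, the ER lumen 5, the ER membrane 5 and mitochondria 5. The nucleus received 3, vesicles and endosomes 3, and 5 were left unplaced. The ER membrane is a place and not a side, so counts and medians by compartment depend on this choice.

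The cells were T47D, an estrogen receptor-positive luminal breast cancer line, and all of them carried an inducible short hairpin RNA (shRNA) that targets PSMD2. The protein PSMD2 is part of the 19S cap, which feeds ubiquitinated proteins into the proteasome. The 4 groups, with 3 libraries each, were Lo19S cells with bortezomib, control cells with bortezomib, Lo19S cells with DMSO and control cells with DMSO. In Lo19S cells the hairpin had been induced with doxycycline at 0.2 µg/ml for 3 days, and doxycycline was withdrawn 24 h before treatment, while control cells were uninduced, so an effect of doxycycline itself cannot be told apart from that of the hairpin. Bortezomib, which blocks the proteolytic sites of the 20S core, was given at 20 nM, and its solvent DMSO alone served as vehicle, both for 16 h. The labels leave it unsaid if libraries of 1 group are separate cultures, so the p-values here cover library-to-library spread, which may be technical.

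Library totals lay between 7376597 and 15003480 counts. PSMD2 was at 541, 546 and 539.6 CPM (scaled with TMM factors, the unit of all levels given here) in Lo19S cells with bortezomib and 1509, 1510 and 1528 in control cells with bortezomib. With DMSO it was at 183, 189 and 184 CPM in Lo19S cells, against 408, 392 and 417 CPM in control cells, a log2 fold change of -1.13 (SE 0.035, adjusted p = 6.27e-30). Control DMSO replicate 3 stood apart, since counts compared with both other control DMSO libraries gave chi-square values of 4.015 and 4.384 per degree of freedom, while all other pairs within groups gave 1.164 to 2.017. Counts of members called are therefore also given without that library. The 6 luminal markers summed to 2379 to 2453 CPM in Lo19S cells with bortezomib, 2593 to 2679 in control cells with bortezomib, 3211 to 3286 in Lo19S cells with DMSO and 3643 to 3724 in control cells with DMSO. Within that list ESR1, GATA3, FOXA1 and KRT8 fell with bortezomib, with log2 fold changes of -2.41, -1.59, -1.96 and -0.48 in Lo19S cells and -3.12, -2.87, -2.26 and -0.54 in control cells. KRT18 and EPCAM rose, by 0.66 and 0.82 in Lo19S cells and 0.82 and 0.96 in control cells. The 6 fibroblast markers summed to 44.2 to 47.1 CPM in Lo19S cells with bortezomib, 63.5 to 69.7 in control cells with bortezomib, 33.0 to 33.8 in Lo19S cells with DMSO and 26.0 to 31.4 in control cells with DMSO, most of it COL1A1, with COL1A2 and DCN at 0 in all Lo19S bortezomib libraries. LUM was next, at 4.01 ± 0.152 CPM in Lo19S cells and 1.65 ± 0.161 CPM in control cells with bortezomib and 4.09 ± 0.2298 CPM in Lo19S cells and 1.74 ± 0.846 CPM in control cells with DMSO (SD, n = 3 each), and was higher in Lo19S cells with bortezomib (1.27, SE 0.26, adjusted p = 7.48e-05) and with DMSO (1.18, SE 0.23, adjusted p = 6.74e-05). The part of either list in the results below was not tested. The 5 leukocyte markers summed to at most 2.42 CPM, with CD3E at 0 in every library, and the 3 endothelial ones to at most 0.372 CPM. In bulk RNA, fewer cells of a kind and less RNA per cell cannot be told apart. Exons of 9 members overlap another gene on the same strand and those of 15 members one on the opposite strand. The library kit keeps the strand, but whether counting used it is not given in the sources used here. The values of these members are therefore uncertain. They include DNAJA4, DNAJB1, DNAJB11, DNAJB4, DNAJB9, DNAJC10, DNAJC14, DNAJC16, DNAJC18, DNAJC30, DNAJC4 and DNAJC9.

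Promoters were read for 36 of the 39 members, as 250 bases before to 50 after the start of the gene in RefSeq's annotation of GRCh38.p14, another build than that of the counts. DNAJC1, DNAJC22 and DNAJC24 were not in that table. The heat shock element, the recognition site of heat shock factors, was searched as GAANNTTCNNGAA on both strands (TTCNNGAANNTTC on the other). It stood in 2 of the 36 members, DNAJA1 and DNAJB6, or 5.56%, and in 172 of 35116 promoters of all genes, or 0.49%. Unlike the members, the 35116 were not cut to 1 window per symbol, nor to protein-coding genes or genes with counts here. The member share rests on 2 genes. The windows of DNAJA1 and DNAJB6 are shown because they hold that element, in capitals. The window at the annotated start of DNAJB1, the member with the highest level under bortezomib, is shown beside them. The window of DNAJA1 is chr9:33025023-33025322 on the plus strand, that of DNAJB6 chr7:157336754-157337053 on the plus strand and that of DNAJB1 chr19:14529222-14529521 on the minus strand.
DNAJA1: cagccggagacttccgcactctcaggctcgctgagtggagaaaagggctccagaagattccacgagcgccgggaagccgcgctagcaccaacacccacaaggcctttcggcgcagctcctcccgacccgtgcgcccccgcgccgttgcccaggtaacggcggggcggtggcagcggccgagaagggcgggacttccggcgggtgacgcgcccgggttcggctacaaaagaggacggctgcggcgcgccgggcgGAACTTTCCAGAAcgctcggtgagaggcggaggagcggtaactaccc
DNAJB6: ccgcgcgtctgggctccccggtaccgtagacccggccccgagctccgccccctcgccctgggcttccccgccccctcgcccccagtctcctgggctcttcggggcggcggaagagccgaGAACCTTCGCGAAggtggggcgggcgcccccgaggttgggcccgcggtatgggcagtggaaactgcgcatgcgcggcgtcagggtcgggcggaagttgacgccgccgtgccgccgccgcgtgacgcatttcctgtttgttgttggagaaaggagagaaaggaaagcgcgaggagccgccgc
DNAJB1: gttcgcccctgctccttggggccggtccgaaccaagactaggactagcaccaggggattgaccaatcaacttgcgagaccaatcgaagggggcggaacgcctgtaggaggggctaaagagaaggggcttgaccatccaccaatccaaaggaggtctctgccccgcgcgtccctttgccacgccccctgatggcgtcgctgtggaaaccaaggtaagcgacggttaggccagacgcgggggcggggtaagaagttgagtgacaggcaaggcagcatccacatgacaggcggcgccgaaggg
In DNAJA1 the element covers bases 4 to 16 of the transcript, counted from 1 at the start, and in DNAJB6 it lies at bases -131 to -119. No match lies in this window of DNAJB1, which says nothing of elements elsewhere. Each member was read in 1 window only, so other starts of a gene were not searched. The shorter forms with 2 repeats, which the longer one contains, stood in members at shares near those of all promoters: GAANNTTC stood in 2 members (5.56%, against 6.77% of all promoters) and TTCNNGAA in 3 (8.33%, against 7.74%), the third being DNAJC15. The ER stress element, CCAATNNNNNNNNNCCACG or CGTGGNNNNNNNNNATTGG on the other strand, stood in none of the 36 windows and in 27 of the 35116 (0.0769%). These matches describe letters only, and binding was not measured.

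With bortezomib the summed level of the family was higher and its make-up differed. The sum over the 39 members, as CPM per kb of transcript, averaged 2085 ± 12.9 in Lo19S cells with bortezomib, 3112 ± 31.0 in control cells with bortezomib, 765 ± 4.65 in Lo19S cells with DMSO and 790.9 ± 29.1 in control cells with DMSO (SD, n = 3 each). Class DNAJB made up 48.6% ± 0.20 of this sum in Lo19S cells with bortezomib, 55.1% ± 0.29 in control cells with bortezomib, 26.9% ± 0.50 in Lo19S cells with DMSO and 27.0% ± 0.48 in control cells with DMSO. Class DNAJC held 27.3% and 18.9% in Lo19S and control cells with bortezomib, and 52.5% and 51.5% in Lo19S and control cells with DMSO. By compartment, cytosolic members held 64.0% ± 0.21 in Lo19S cells and 72.4% ± 0.38 in control cells with bortezomib, against 42.9% ± 0.20 in Lo19S cells and 43.7% ± 0.63 in control cells with DMSO. Members of the ER lumen held 18.7%, 16.5%, 15.4% and 15.7% in Lo19S bortezomib, control bortezomib, Lo19S DMSO and control DMSO libraries, and mitochondrial members 7.53%, 4.48%, 16.2% and 15.7%. The shares are a description and depend on the annotated transcript lengths, which reach 20.1 kb for DNAJC10.

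**Figure D1:**
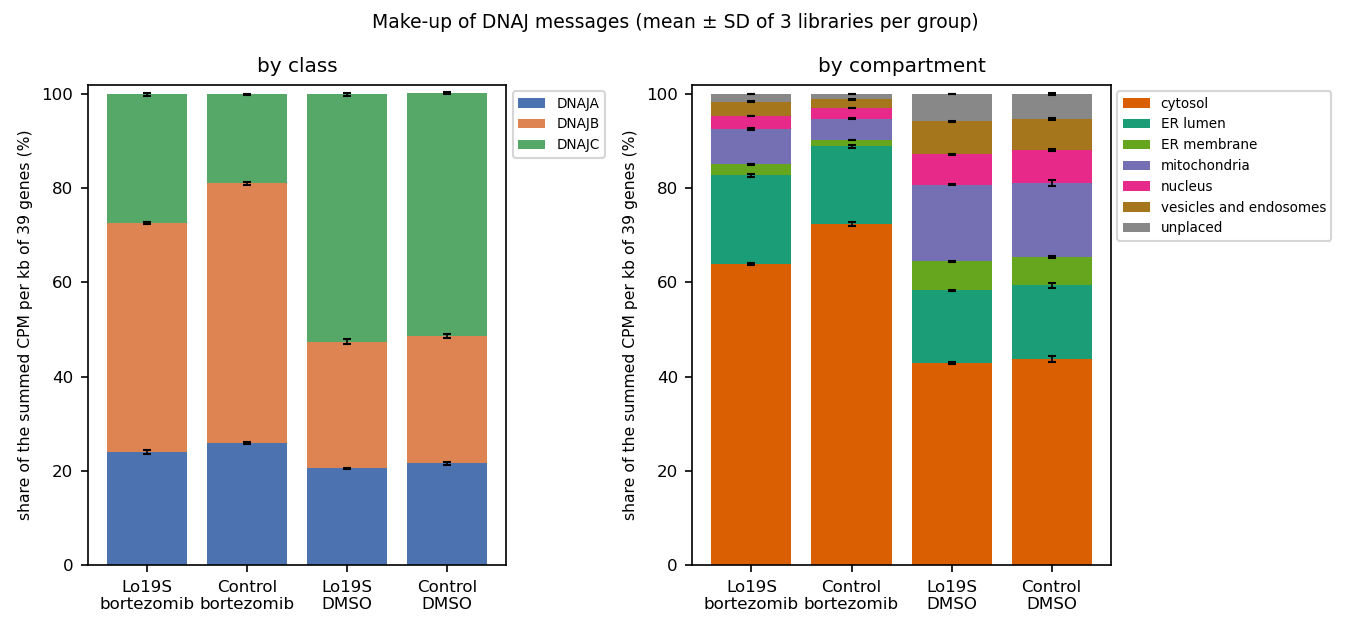
Stacked bars give the share (%) of the summed CPM per kb of the 39 DNAJ genes held by each class (left) and each compartment (right) in the 4 groups, as means with SD of 3 libraries. Class DNAJB makes up 48.6% and 55.1% in Lo19S and control cells with bortezomib, and 26.9% and 27.0% with DMSO.

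The most abundant member differed between treatments. DNAJB11, which binds clients in the ER lumen, led in DMSO with 84.2 ± 0.16 CPM per kb in Lo19S cells and 88.7 ± 5.0 CPM per kb in control cells. DNAJA1 followed with 71.2 ± 2.3 CPM per kb in Lo19S cells and 83.3 ± 6.8 CPM per kb in control cells, and in control cells these levels overlapped within their SD. DNAJB1 was the 7th and 6th in that order, at 35.6 ± 2.8 CPM per kb in Lo19S cells and 41.6 ± 1.2 CPM per kb in control cells with DMSO. With bortezomib DNAJB1 was first in both states, at 493 ± 7.7 CPM per kb in Lo19S cells and 980.7 ± 19.8 CPM per kb in control cells, ahead of DNAJB11 at 297 CPM per kb in Lo19S cells and 405 CPM per kb in control cells. DNAJA4 held the 4th and 3rd place with bortezomib, at 162 and 373 CPM per kb in Lo19S and control cells, against the 19th and 16th place with DMSO, at 12.8 and 14.3 CPM per kb. DNAJC18 was the lowest member with DMSO, at 0.727 ± 0.13 and 0.379 ± 0.16 CPM per kb in Lo19S and control cells.

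Bortezomib was compared with DMSO within each state to describe the response to proteasome inhibition. In Lo19S cells 27 members rose and 6 fell, and in control cells 26 rose and 10 fell. The background was high: 77.5% of the 14714 genes tested were called in Lo19S cells (37.8% higher, 39.7% lower) and 81.4% in control cells (39.2% higher, 42.2% lower). The median log2 fold change of the members was 0.54 in Lo19S cells and 0.50 in control cells, beside -0.02 and -0.04 over all genes tested. At least 2-fold rises were seen in 11 members in Lo19S cells (28.2%, against 10.3% of all genes) and in 13 in control cells (33.3%, against 14.5%). In each state 2 members (5.13%) fell by at least 2-fold, against 18.5% of all genes in Lo19S cells and 22.1% in control cells. When libraries were scaled by their totals alone, which moved the median of all genes by -0.29 in Lo19S cells and -0.38 in control cells, the split was 22 higher and 10 lower in Lo19S cells and 19 higher and 14 lower in control cells. Without control DMSO replicate 3 the counts were 27 higher and 7 lower in Lo19S cells and 26 higher and 10 lower in control cells.

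In both states together, 26 members rose in both and 6 fell in both. The share of all genes called in both states was not counted. In the separate comparisons 77.5% of all genes tested were called in Lo19S cells and 81.4% in control cells. DNAJC14, DNAJC28, DNAJC30 and DNAJC5 fell in control cells without passing the test in Lo19S cells, DNAJC16 rose in Lo19S cells without passing it in control cells, and DNAJB12 and DNAJC12 passed in neither state. With library totals DNAJC14 (-0.41, adjusted p = 2.35e-08), DNAJC30 (-0.31, 0.000151) and DNAJC5 (-0.32, 4.28e-08) passed as lower in Lo19S cells too, DNAJC16 was lower in control cells (-0.40, 4.17e-05), and DNAJB12 was lower in Lo19S cells (-0.31, 6.55e-05) and control cells (-0.51, 5.97e-09). DNAJC14 also passed in Lo19S cells with no filter on low counts (-0.17, 0.01), with only the compared groups fitted (-0.13, 0.0187), and without control DMSO replicate 3 (-0.12, 0.0213) or Lo19S bortezomib replicate 2 (-0.14, 0.0481), and DNAJB12 in control cells with no filter (-0.20, 0.0196). All 4 DNAJA genes rose in each state, with medians of 1.19 in Lo19S cells and 1.23 in control cells, although with library totals DNAJA2 turned to -0.04 in control cells. Of 9 DNAJB genes 7 rose and 1 fell in each state, with medians of 1.59 in Lo19S cells and 2.13 in control cells, although with library totals DNAJB14 turned to -0.12 in control cells. Of 26 DNAJC genes 16 rose and 5 fell in Lo19S cells and 15 rose and 9 fell in control cells, with medians of 0.35 in Lo19S cells and 0.34 in control cells.

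**Figure D2:**
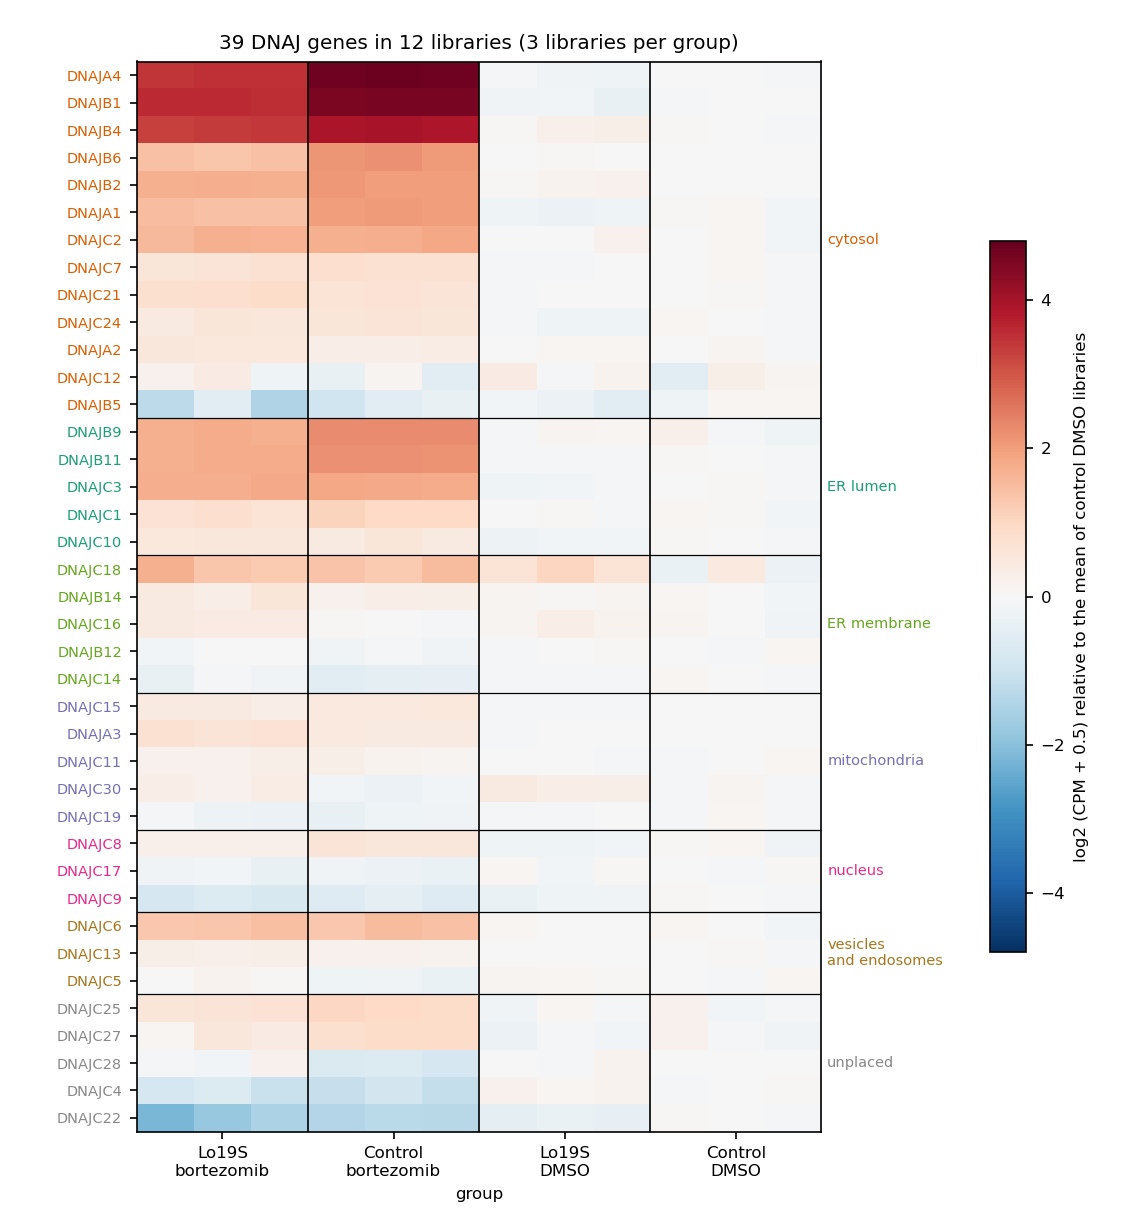
Colours give log2 (CPM + 0.5) of each of the 39 DNAJ genes in each of the 12 libraries relative to the mean of the control DMSO libraries, with genes grouped by compartment and the 4 groups of 3 libraries side by side. DNAJA4, DNAJB1 and DNAJB4 are the most strongly raised with bortezomib, and their 3 Lo19S bortezomib libraries are paler than the control ones.

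Of the 13 cytosolic members, which include the 3 largest rises in each state, 11 rose and 1 fell in each state, with a median of 1.34 in Lo19S cells and 1.78 in control cells, DNAJA2 turning to -0.04 in control cells with library totals. DNAJB1, the main heat-inducible class B protein, which with HSP70 and HSP110 takes aggregates apart, was at 1120, 1130 and 1096 CPM in Lo19S cells and 2170, 2256 and 2235 CPM in control cells with bortezomib. DNAJB1 with DMSO was at 83.02, 85.1 and 73.4 CPM in Lo19S cells and 91.02, 96.5 and 95.05 CPM in control cells. The 4 groups did not overlap, and the control bortezomib libraries were highest. The change with bortezomib was 3.79 (SE 0.041, adjusted p = 1.15e-50) in Lo19S cells, or 13.8-fold, and 4.56 (SE 0.041, adjusted p = 1.41e-54) in control cells, or 23.6-fold.

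DNAJA4, a class A relative of DNAJA1 known to be induced by heat, showed the largest rise of any member in control cells. With bortezomib DNAJA4 was at 512, 529.5 and 537 CPM in Lo19S cells and 1200, 1223 and 1205 CPM in control cells. In DMSO libraries it was at 44.1, 40.8 and 40.1 CPM in Lo19S cells and 46.8, 47.6 and 45.1 CPM in control cells. Control bortezomib libraries stood above Lo19S bortezomib libraries, and both stood far above all DMSO libraries. The rise was 3.66 (SE 0.043) log2 units or 12.6-fold in Lo19S cells and 4.70 (SE 0.042) or 26.01-fold in control cells.

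DNAJB4 is a close relative of DNAJB1 and stood at a low level with DMSO. It was at 98.7, 103 and 106 CPM in Lo19S cells and 153, 157 and 149.5 CPM in control cells with bortezomib. DNAJB4 with DMSO was at 9.96, 11.4 and 11.9 CPM in Lo19S cells and 9.97, 9.69 and 9.11 CPM in control cells. The bortezomib groups did not overlap with each other or with DMSO, while the DMSO groups of both states overlapped. The change was 3.22 (SE 0.071, adjusted p = 8.92e-38) in Lo19S cells and 3.99 (SE 0.07, adjusted p = 1.81e-42) in control cells.

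DNAJB6, which keeps polyglutamine proteins from aggregating, was at 165, 157 and 165 CPM in Lo19S cells and 271, 286 and 260.5 CPM in control cells with bortezomib. DNAJB6 with DMSO was at 63.9, 65.4 and 63.8 CPM in Lo19S cells and 62.3, 63.3 and 61.9 CPM in control cells. The bortezomib libraries of the states did not overlap, and the DMSO libraries lay within a few CPM of each other. The rise was 1.34 (SE 0.048) in Lo19S cells and 2.13 (SE 0.046) in control cells. DNAJA1, the abundant class A partner of HSPA8, was at 557, 527 and 527 CPM in Lo19S cells and 807, 810.3 and 794 CPM in control cells with bortezomib. DNAJA1 with DMSO was at 172, 163 and 173 CPM in Lo19S cells and 204, 211 and 180.1 CPM in control cells. All 4 groups of DNAJA1 were apart, and the control libraries were higher under either treatment. Its rise was 1.66 (SE 0.042) in Lo19S cells and 2.02 (SE 0.041) in control cells. Among the 36 promoter windows read, those of DNAJA1 and DNAJB6, printed above, hold the heat shock element.

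Other cytosolic members rose less. DNAJB2, which carries ubiquitin-binding motifs and hands clients to the proteasome, averaged 144 ± 1.895 CPM in Lo19S cells and 182 ± 4.18 CPM in control cells with bortezomib, and 48.03 ± 2.504 CPM in Lo19S cells and 43.8 ± 0.976 CPM in control cells with DMSO (SD, n = 3 each). DNAJC2, which works with HSPA14 at the ribosome, rose by 1.56 and 1.78 in Lo19S and control cells. DNAJC21, needed for ribosome assembly, rose by 0.85 in Lo19S cells and 0.65 in control cells, while DNAJC7, which binds both HSP70 and HSP90, rose by 0.69 in Lo19S cells and 0.77 in control cells. DNAJC24, needed for making diphthamide, rose by 0.68 in Lo19S cells and 0.59 in control cells. DNAJA2 rose by 0.47 in Lo19S cells and 0.35 in control cells. DNAJC12, a partner of aromatic amino acid hydroxylases, did not pass the test, at -0.12 (SE 0.31, adjusted p = 0.723) in Lo19S cells and -0.24 (SE 0.35, adjusted p = 0.519) in control cells.

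DNAJB5 went the other way, although it is a near relative of DNAJB1 and DNAJB4. With bortezomib DNAJB5 was at 1.55, 2.93 and 1.298 CPM in Lo19S cells and 2.08, 3.01 and 3.33 CPM in control cells. In DMSO libraries DNAJB5 was at 3.98, 3.53 and 2.89 CPM in Lo19S cells and 3.78, 4.84 and 4.74 CPM in control cells. The groups were apart in control cells, and in Lo19S cells 1 bortezomib library lay just above the lowest DMSO library. Its change was -0.99 (SE 0.26, adjusted p = 0.000525) in Lo19S cells and -0.65 (SE 0.22, adjusted p = 0.0077) in control cells, at a depth of 13 to 52 counts per library. The call in control cells was lost with DESeq2 (adjusted p = 0.0654) and without control bortezomib replicate 1 (adjusted p = 0.073).

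**Figure D3:**
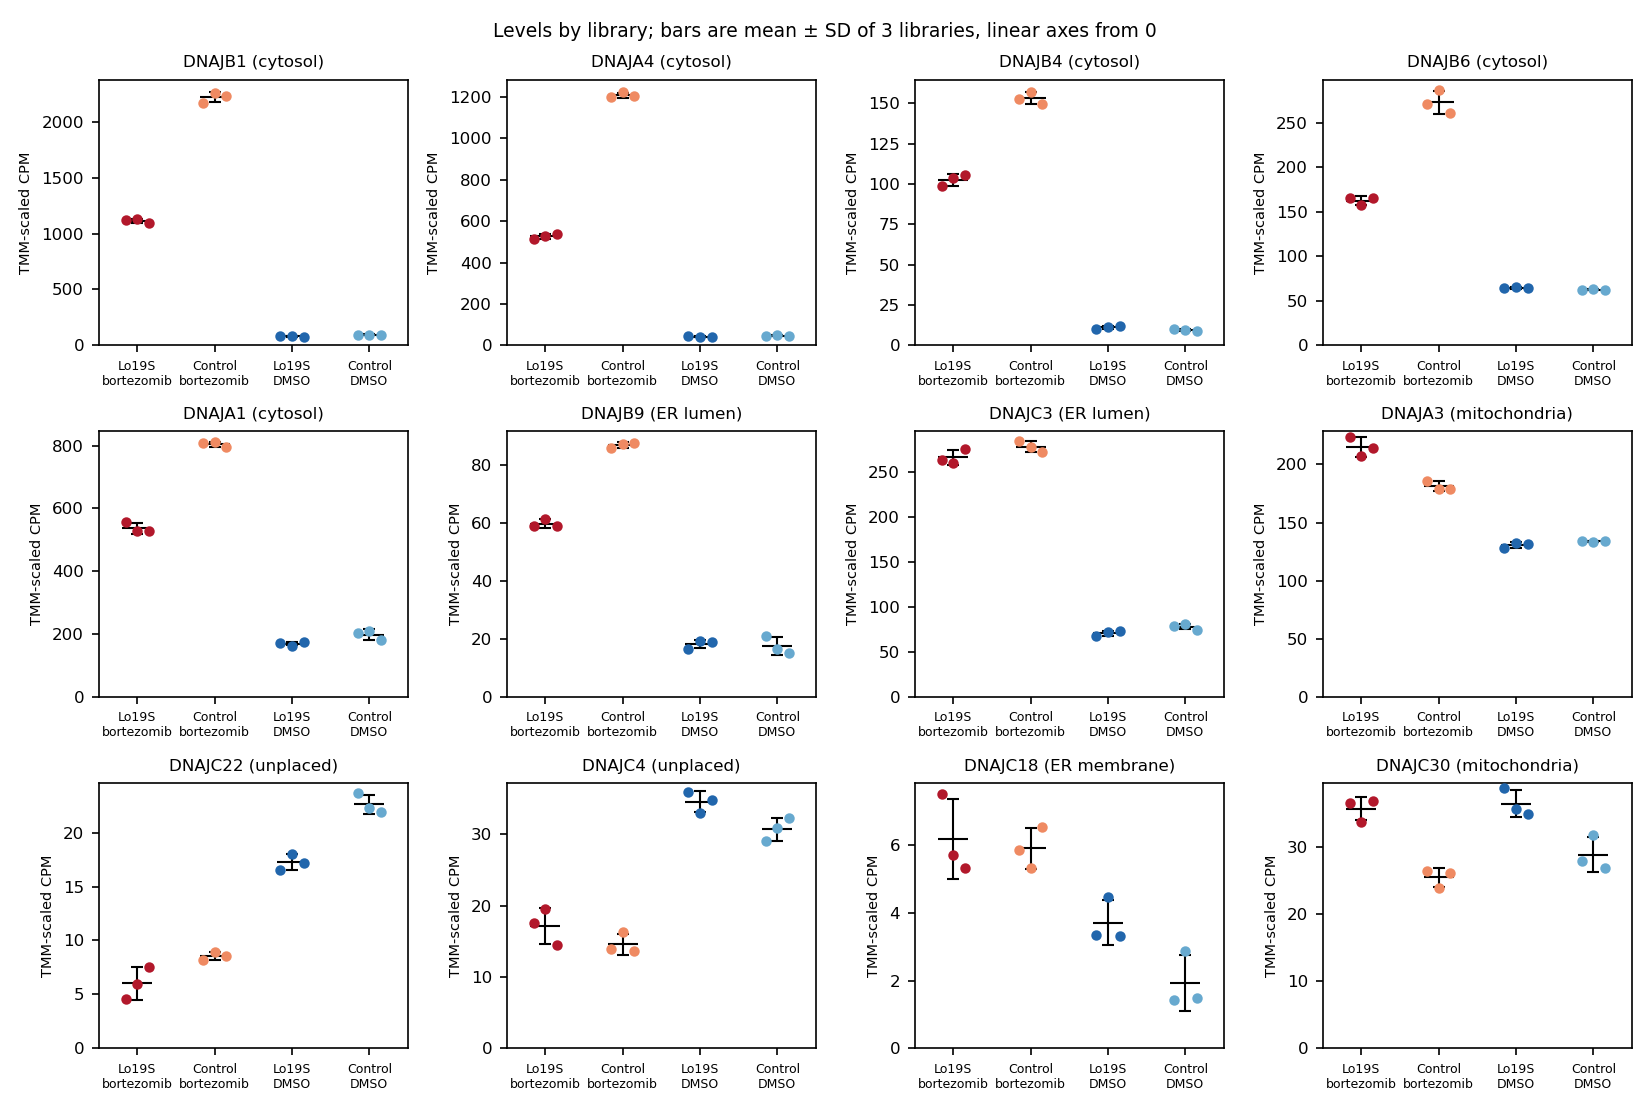
Points give the TMM-scaled CPM of 12 DNAJ genes in each library, with the mean and SD of 3 libraries per group, on linear axes that start at 0. DNAJB1, DNAJA4, DNAJB4, DNAJB6, DNAJA1 and DNAJB9 are highest in control cells with bortezomib, DNAJC3 overlaps between the states with bortezomib, DNAJA3 is highest in Lo19S cells with bortezomib, and DNAJC22 and DNAJC4 are lower with bortezomib.

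All 5 members of the ER lumen rose in each state, with medians of 1.71 in Lo19S cells and 1.83 in control cells. DNAJB9 helps to clear misfolded proteins from the ER and restrains the stress sensor IRE1. It was at 58.9, 61.5 and 59.01 CPM in Lo19S cells and 85.8, 87.4 and 87.5 CPM in control cells with bortezomib. DNAJB9 with DMSO was at 16.6, 19.4 and 18.8 CPM in Lo19S cells and 20.9, 16.5 and 15.2 CPM in control cells. The DMSO libraries of both states overlapped, and the bortezomib groups were apart. Its rise was 1.71 (SE 0.079, adjusted p = 9.08e-25) in Lo19S cells and 2.29 (SE 0.075, adjusted p = 5.74e-31) in control cells. DNAJB11 averaged 712 ± 20.3 CPM in Lo19S cells and 971 ± 19.3 CPM in control cells with bortezomib, and 202 ± 0.384 CPM and 213 ± 11.9 CPM in Lo19S and control cells with DMSO (SD, n = 3 each).

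DNAJC3, also called p58IPK, brings unfolded clients to HSPA5. With bortezomib DNAJC3 was at 264, 261 and 276 CPM in Lo19S cells and 284, 278 and 272 CPM in control cells, and these ranges overlapped. DNAJC3 with DMSO was at 67.7, 71.7 and 73 CPM in Lo19S cells and 78.9, 80.7 and 74.7 CPM in control cells. The rise was 1.92 (SE 0.045, adjusted p = 5.91e-37) in Lo19S cells, the largest of the 5, and 1.83 (SE 0.044, adjusted p = 1.11e-36) in control cells. DNAJC10, a reductase that cuts disulfide bonds before degradation, was at 133, 138 and 138 CPM in Lo19S cells and 126, 138 and 127 CPM in control cells with bortezomib. DNAJC10 with DMSO was at 79.3, 84.7 and 86.4 CPM in Lo19S cells and 96.4, 94.8 and 89.1 CPM in control cells. Bortezomib libraries were above DMSO libraries in each state, and the states overlapped with bortezomib and not with DMSO. It rose by 0.71 (SE 0.049) in Lo19S cells and 0.48 (SE 0.049) in control cells. DNAJC1, which binds ribosomes at the ER, rose by 0.72 (SE 0.078) in Lo19S cells and 1.0046 (SE 0.076) in control cells. With library totals the rise of DNAJC10 in control cells was 0.10 and no longer passed (adjusted p = 0.0554).

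Members at the ER membrane moved little as a group, with 3 rising and none falling in Lo19S cells (median 0.19) and 2 rising and 1 falling in control cells (median -0.02). DNAJC18 was at 7.53, 5.71 and 5.34 CPM in Lo19S cells and 5.86, 5.34 and 6.55 CPM in control cells with bortezomib. DNAJC18 with DMSO was at 3.35, 4.47 and 3.31 CPM in Lo19S cells and 1.44, 2.89 and 1.49 CPM in control cells. Bortezomib libraries were higher than DMSO libraries in each state, and the states overlapped only with bortezomib. It rose by 0.70 (SE 0.19) in Lo19S cells and 1.63 (SE 0.23) in control cells, from 16 to 74 counts per library. DNAJC16, which bears on the size of autophagosomes, was at 33.6, 32.8 and 32.8 CPM in Lo19S cells and 25.9, 24.8 and 23.5 CPM in control cells with bortezomib. DNAJC16 with DMSO was at 27.4, 31.7 and 27.9 CPM in Lo19S cells and 27.6, 25.2 and 22.1 CPM in control cells. The Lo19S bortezomib libraries were above all others, and the remaining groups overlapped in part. Its change was 0.19 (SE 0.08, adjusted p = 0.0302) in Lo19S cells and -0.02 (SE 0.087, adjusted p = 0.808) in control cells. The call in Lo19S cells turned to -0.10 with library totals. It was also lost with DESeq2 (adjusted p = 0.133), with no filter on low counts (0.216), without Lo19S DMSO replicate 1 or 3 (0.146 and 0.089) and without Lo19S bortezomib replicate 1 or 3 (0.0649 and 0.0597).

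DNAJC14, first found as a binder of dopamine receptors, was at 64.2, 77.4 and 73.4 CPM in Lo19S cells and 57.5, 58.9 and 63 CPM in control cells with bortezomib. DNAJC14 with DMSO was at 78.2, 78.4 and 76.5 CPM in Lo19S cells and 86.4, 82.97 and 76.7 CPM in control cells. Only the control bortezomib libraries lay below all the others. The change was -0.12 (SE 0.058, adjusted p = 0.0605) in Lo19S cells and -0.46 (SE 0.06, adjusted p = 2.5e-09) in control cells. DNAJB12 and DNAJB14 both pass faulty membrane proteins to degradation. DNAJB14 rose by 0.37 (SE 0.067) in Lo19S cells and 0.26 (SE 0.07) in control cells. With library totals its value was 0.08 in Lo19S cells, where it did not pass (adjusted p = 0.277), and turned to -0.12 in control cells. DNAJB12 changed by -0.02 (SE 0.068, adjusted p = 0.777) in Lo19S cells and -0.13 (SE 0.07, adjusted p = 0.0873) in control cells.

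Mitochondrial members changed by less than 2-fold, with 3 of 5 rising and 1 falling in Lo19S cells (median 0.25) and 3 rising and 2 falling in control cells (median 0.20). DNAJA3, the class A partner of HSPA9 in the matrix, was at 224, 207 and 214 CPM in Lo19S cells and 186, 179 and 179 CPM in control cells with bortezomib. DNAJA3 with DMSO was at 128, 132 and 132 CPM in Lo19S cells and 134, 133 and 134 CPM in control cells. Unlike the cytosolic DNAJA1 and DNAJA4, it was highest in Lo19S cells with bortezomib, apart from the control bortezomib libraries. The cytosolic DNAJA2 was also higher in Lo19S than in control cells with bortezomib (0.19, SE 0.052, adjusted p = 0.0024). The rise of DNAJA3 was 0.72 (SE 0.041, adjusted p = 4.28e-21) in Lo19S cells and 0.44 (SE 0.042, adjusted p = 2.27e-13) in control cells, and 0.06 in control cells with library totals (adjusted p = 0.197). DNAJC30, linked to complex I, was at 36.6, 33.8 and 36.9 CPM in Lo19S cells and 26.4, 23.8 and 26.2 CPM in control cells with bortezomib. DNAJC30 with DMSO was at 38.8, 35.7 and 34.95 CPM in Lo19S cells and 27.9, 31.9 and 26.9 CPM in control cells. Lo19S libraries were above control libraries under either treatment. Its change with bortezomib was -0.03 (SE 0.073, adjusted p = 0.757) in Lo19S cells and -0.18 (SE 0.083, adjusted p = 0.043) in control cells. The call in control cells was lost with DESeq2 (adjusted p = 0.14), with RLE scaling (0.0674), with only the compared groups fitted (0.0795), with a replicate block (0.0522) and without any 1 of control DMSO replicate 2 (0.253), control bortezomib replicate 2 (0.203) or 3 (0.0537), or Lo19S bortezomib replicate 1 (0.0502) or 2 (0.0776). DNAJC15 and DNAJC19 belong to the protein import machinery of the inner membrane. DNAJC15 rose by 0.49 in Lo19S cells and 0.50 in control cells, where the value was 0.11 and did not pass with library totals (adjusted p = 0.152). DNAJC19 changed by -0.14 (SE 0.067, adjusted p = 0.0471) in Lo19S cells and -0.24 (SE 0.068, adjusted p = 0.00123) in control cells. The DNAJC19 call in Lo19S cells was kept when control DMSO replicate 2 or 3 or Lo19S bortezomib replicate 1 was left out, and lost without each of the other 9 libraries (adjusted p from 0.0501 to 0.357), and also with RLE scaling (0.0507), DESeq2 (0.158) and a replicate block (0.0627). DNAJC11, found with the cristae-forming complex, rose by 0.25 in Lo19S cells and 0.20 in control cells. With library totals DNAJC11 turned to -0.03 in Lo19S cells (adjusted p = 0.565) and was called lower in control cells (-0.18, adjusted p = 0.0019).

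In the nucleus, DNAJC8 rose and DNAJC9 and DNAJC17 fell in each state. DNAJC9, a chaperone of histones H3 and H4, was at 15.8, 18 and 16.6 CPM in Lo19S cells and 18.3, 20.3 and 18.1 CPM in control cells with bortezomib. DNAJC9 with DMSO was at 22.6, 24.6 and 24.9 CPM in Lo19S cells and 29.6, 28.2 and 27.1 CPM in control cells. All 4 groups were apart, with the Lo19S libraries lower under either treatment, although the state difference with bortezomib did not pass the test (-0.18, SE 0.098, adjusted p = 0.137). With bortezomib it changed by -0.52 (SE 0.09, adjusted p = 1.17e-06) in Lo19S cells and -0.58 (SE 0.086, adjusted p = 4.3e-08) in control cells. The splicing-related DNAJC8 rose by 0.42 (SE 0.057) in Lo19S cells and 0.57 (SE 0.055) in control cells, and DNAJC17, also tied to splicing, changed by -0.25 (SE 0.10, adjusted p = 0.0242) in Lo19S cells and -0.28 (SE 0.11, adjusted p = 0.016) in control cells. Both DNAJC17 calls were lost with DESeq2 (adjusted p = 0.137 in Lo19S cells and 0.0886 in control cells). The call in Lo19S cells was also lost without Lo19S DMSO replicate 1 (0.118) or 3 (0.0627) or Lo19S bortezomib replicate 3 (0.209), and that in control cells without control bortezomib replicate 2 (0.0523) or 3 (0.0629).

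Among members of vesicles and endosomes, DNAJC6, or auxilin, which with HSPA8 strips clathrin from vesicles, rose by 1.36 (SE 0.083) in Lo19S cells and 1.43 (SE 0.083) in control cells. DNAJC13, which acts at endosomes, rose by 0.28 in Lo19S cells and 0.20 in control cells. With library totals DNAJC13 turned to -0.01 in Lo19S cells (adjusted p = 0.794) and was called lower in control cells (-0.18, adjusted p = 7.81e-05). DNAJC5, the cysteine string protein of secretory vesicles, was at 141, 154 and 142 CPM in Lo19S cells and 121, 122 and 111 CPM in control cells with bortezomib. DNAJC5 with DMSO was at 152, 148 and 145 CPM in Lo19S cells and 137, 129.8 and 147 CPM in control cells. The control bortezomib libraries were the lowest and did not overlap with the rest. Its change was -0.03 (SE 0.047, adjusted p = 0.562) in Lo19S cells and -0.22 (SE 0.049, adjusted p = 4.94e-05) in control cells.

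The strongest falls were found among unplaced members. DNAJC22, whose Drosophila counterpart acts in endocytosis, was at 4.54, 5.999 and 7.57 CPM in Lo19S cells and 8.18, 8.91 and 8.57 CPM in control cells with bortezomib. DNAJC22 with DMSO was at 16.6, 17.99 and 17.2 CPM in Lo19S cells and 23.6, 22.3 and 21.9 CPM in control cells. The 4 groups were apart, with the Lo19S libraries lower under each treatment. It changed by -1.45 (SE 0.13, adjusted p = 1.61e-14) in Lo19S cells and -1.40 (SE 0.12, adjusted p = 2.1e-15) in control cells. DNAJC4 was at 17.6, 19.5 and 14.4 CPM in Lo19S cells and 13.9, 16.3 and 13.6 CPM in control cells with bortezomib. In DMSO libraries DNAJC4 was at 35.9, 32.96 and 34.8 CPM in Lo19S cells and 29.01, 30.8 and 32.2 CPM in control cells. Bortezomib libraries of DNAJC4 were all below DMSO libraries, and the change was -1.05 (SE 0.09) in Lo19S cells and -1.07 (SE 0.096) in control cells. Exons of DNAJC4 overlap those of NUDT22 on the same strand.

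DNAJC28 was at 3.82, 3.66 and 4.83 CPM in Lo19S cells and 2.32, 2.45 and 2.14 CPM in control cells with bortezomib. In DMSO libraries DNAJC28 was at 4.06, 3.87 and 4.703 CPM in Lo19S cells and 4.16, 4.097 and 4.09 CPM in control cells. Only the control bortezomib libraries were low, apart from the other groups. It changed by 0.02 (SE 0.18, adjusted p = 0.917) in Lo19S cells and -0.83 (SE 0.21, adjusted p = 0.000472) in control cells, at 18 to 67 counts per library. DNAJC25 rose by 0.71 in Lo19S cells and 0.95 in control cells, and DNAJC27, a J protein with a small GTPase domain, by 0.54 in Lo19S cells and 0.88 in control cells. With library totals the DNAJC27 value in Lo19S cells was 0.25 and did not pass (adjusted p = 0.0817).

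The state itself was described by comparing Lo19S with control cells under DMSO, where 29 members did not pass the test. Of the 39 members 2 were higher and 8 lower in Lo19S cells, against a background of 24.7% of all genes called (11.7% higher and 13.0% lower), so the share of members called, 10 of 39, lies near the background. The median change was -0.02, beside 0.00 over all genes, and no member changed by 2-fold. The higher ones were DNAJC18, by 0.97 (SE 0.24, adjusted p = 0.0016), and DNAJC30, by 0.34 (SE 0.074, adjusted p = 0.000294). The lower ones were DNAJC22 (-0.39, SE 0.095, adjusted p = 0.0013), DNAJC9 (-0.24), DNAJA1 (-0.23, SE 0.043, adjusted p = 6.25e-05), DNAJB1 (-0.22, SE 0.046, adjusted p = 0.000248), DNAJC8 (-0.18), DNAJC10 (-0.17), DNAJA4 (-0.15) and DNAJC3 (-0.15). They are spread over cytosol (3), ER lumen (2), nucleus (2) and unplaced members (1). Without control DMSO replicate 3 there were 4 higher and 10 lower, and with library totals 4 higher and 6 lower, where DNAJA4 (adjusted p = 0.0573) and DNAJC3 (0.0526) were lost. With DESeq2 4 were lower, as the calls of DNAJA4, DNAJC3, DNAJC8 and DNAJC9 were lost. Single libraries also ended calls: 3 members were lower without control DMSO replicate 1, 5 without control DMSO replicate 2 and 4 without Lo19S DMSO replicate 1. DNAJA4 was lost without control DMSO replicate 1 (adjusted p = 0.0775) or 2 (0.0873) and without Lo19S DMSO replicate 2 (0.113) or 3 (0.122). DNAJC3 was lost without Lo19S DMSO replicate 1 (0.161) and without control DMSO replicate 1 (0.0711) or 2 (0.0926). DNAJC8 was lost without Lo19S DMSO replicate 1 (0.0764) or 2 (0.0605) and without control DMSO replicate 1 (0.0738) or 2 (0.132). DNAJC9 and DNAJC10 were lost without control DMSO replicate 1 (0.0938 and 0.062) and without Lo19S DMSO replicate 1 (0.119 and 0.101).

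With bortezomib the states differed more, and 8 of the 15 members lower in Lo19S cells were cytosolic. Of the 39 members 9 were higher and 15 lower in Lo19S than in control cells, against a background of 22.0% higher and 21.2% lower (43.1% in all). The median was -0.06, beside 0.00 over all genes. Cytosolic members counted 2 higher and 8 lower (median -0.33), members of the ER lumen 0 higher and 3 lower (-0.28), and those of the ER membrane 3 higher and 0 lower (0.20). Mitochondrial members counted 2 higher and 0 lower (0.04), nuclear ones 0 higher and 1 lower, those of vesicles 1 higher and 0 lower, and unplaced ones 1 higher and 3 lower. By class, DNAJA counted 2 higher and 2 lower, DNAJB 1 higher and 6 lower, and DNAJC 6 higher and 7 lower. Scaling by library totals gave 14 higher and 12 lower, with the median of all genes moved by 0.11, and the counts without control DMSO replicate 3 were 10 higher and 16 lower.

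The largest of these differences were in DNAJA4 (-1.20, SE 0.034, adjusted p = 2.88e-32), DNAJB1 (-0.99, SE 0.034, adjusted p = 1.1e-28), DNAJB6 (-0.74, SE 0.042), DNAJA1 (-0.58, SE 0.038), DNAJB4 (-0.58, SE 0.05) and DNAJB9 (-0.54, SE 0.064). DNAJC27 (-0.52, SE 0.12), DNAJB11 (-0.45, SE 0.035) and DNAJC22 (-0.44, SE 0.15) were also lower. The DNAJC22 call was lost with library totals (adjusted p = 0.0698) and without control bortezomib replicate 2 (0.0595) or Lo19S bortezomib replicate 1 (0.142). On the other side stood DNAJC28 (0.88, SE 0.22, adjusted p = 0.000962), DNAJC30 (0.50, SE 0.082, adjusted p = 1.85e-06), DNAJC16 (0.42, SE 0.086, adjusted p = 7.74e-05), DNAJC5 (0.30, SE 0.049), DNAJC14 (0.26, SE 0.063) and DNAJA3 (0.25, SE 0.041). DNAJB5 was at -0.67 (SE 0.28, adjusted p = 0.0504) and did not pass, but it passed without Lo19S bortezomib replicate 2, at -1.0011 (adjusted p = 0.00749). Among the smaller calls, DNAJB14 was lost without control bortezomib replicate 1 (0.108) or Lo19S bortezomib replicate 3 (0.283), and DNAJC2 without control bortezomib replicate 3 (0.209) or Lo19S bortezomib replicate 1 (0.206). DNAJC7 was lost without control bortezomib replicate 1 (0.0914) or Lo19S bortezomib replicate 1 (0.116) or 2 (0.091), and all 3 of these calls were lost with DESeq2 (0.0788, 0.0887 and 0.0516). With library totals DNAJC2 (-0.02, 0.767) and DNAJC7 (-0.0097, 0.875) were lost too.

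**Figure D4:**
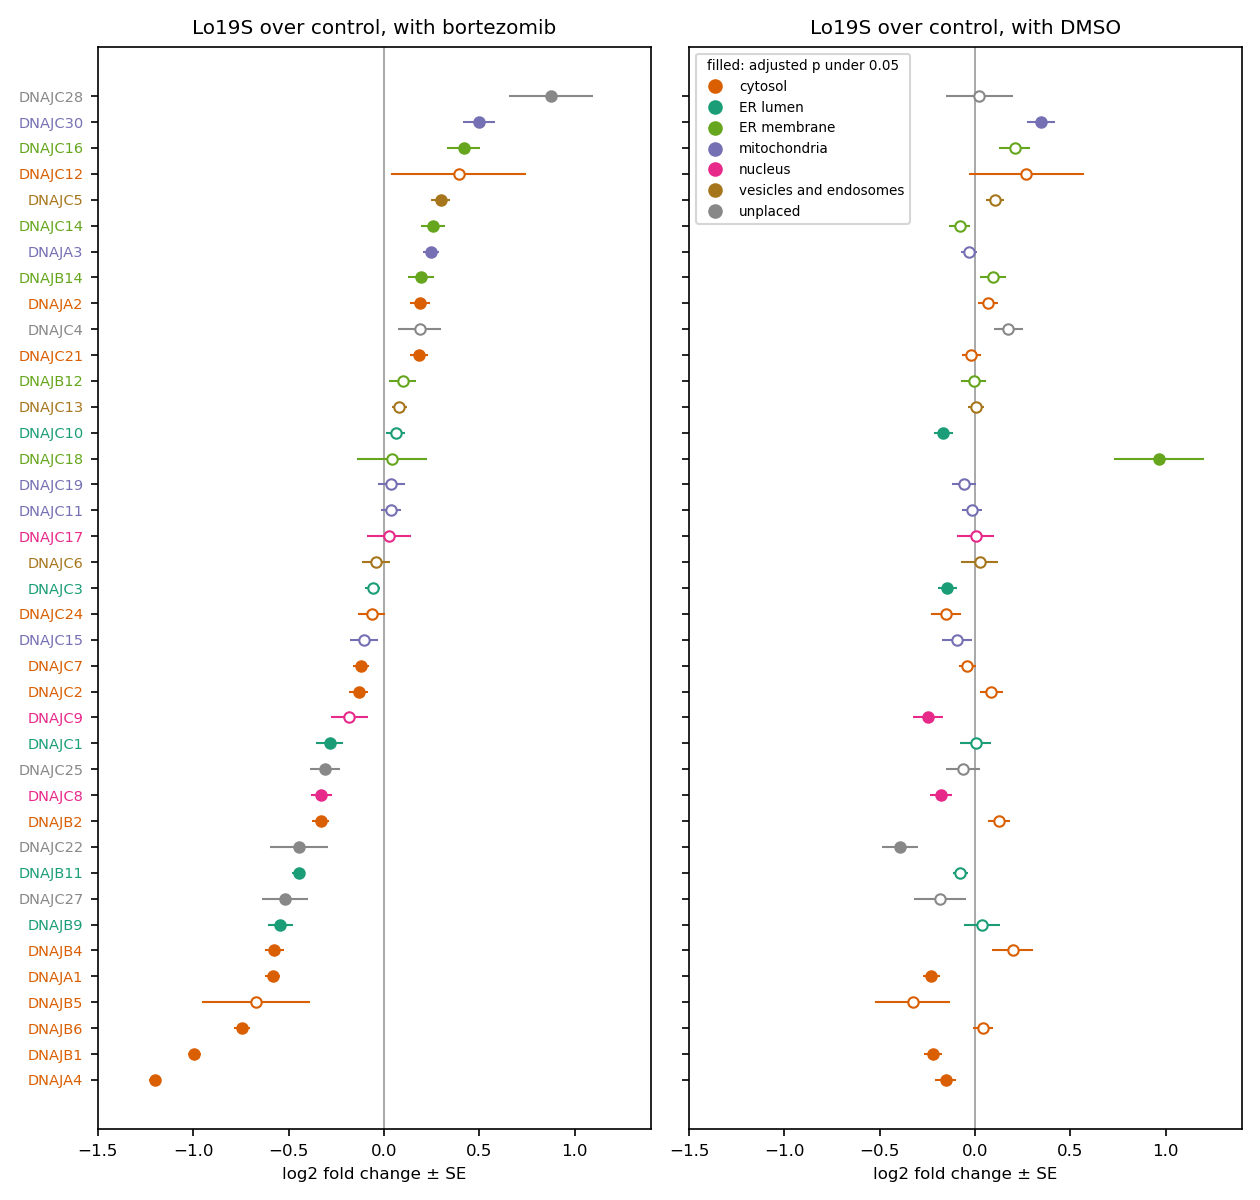
Points give the log2 fold change of Lo19S over control cells for the 39 DNAJ genes with bortezomib (left) and with DMSO (right), with SE bars, coloured by compartment and filled where the adjusted p is under 0.05. With bortezomib the filled points run from DNAJA4 at -1.20 to DNAJC28 at 0.88, whereas with DMSO they run from DNAJC22 at -0.39 to DNAJC18 at 0.97.

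Whether the response to bortezomib itself differed between states was tested as the difference of the responses, Lo19S minus control. Responses of 11 members were lower and those of 6 were higher in Lo19S cells, against a background of 13.4% lower and 14.4% higher (27.8% in all). The median over the members was 0.01, beside 0.01 over all genes. The rise was smaller in Lo19S cells for DNAJA4, with a difference of -1.05 (SE 0.064, adjusted p = 2.89e-18), DNAJB6 (-0.79, SE 0.067, adjusted p = 2.28e-13), DNAJB1 (-0.77, SE 0.057, adjusted p = 2.71e-15), DNAJB4 (-0.77, SE 0.12, adjusted p = 1.08e-06), DNAJB9 (-0.58, SE 0.11, adjusted p = 8.46e-05), DNAJB2 (-0.46, SE 0.073), DNAJB11 (-0.37, SE 0.052) and DNAJA1 (-0.35, SE 0.058). The calls of these 8 were kept in every alternative fit. With all calls counted, 7 of 13 cytosolic members had a lower response and 1 a higher one (median -0.34). Of 9 DNAJB genes 6 had a lower and none a higher response (median -0.46), and members of the ER lumen 3 lower and 1 higher (-0.29). These counts include the cytosolic DNAJC2 and DNAJC21 and the lumenal DNAJC1 and DNAJC10, whose calls were lost in some alternative fits. DNAJC3 had no such difference by the test, at 0.09 (SE 0.063, adjusted p = 0.331), but passed with library totals, at 0.18 (adjusted p = 0.0252).

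DNAJC18 also had a lower response in Lo19S cells, with a difference of -0.92 (SE 0.30, adjusted p = 0.0172), where its levels already differed with DMSO and did not with bortezomib (0.04, SE 0.18, adjusted p = 0.882). That call was lost with DESeq2 (adjusted p = 0.0822) and without control DMSO replicate 1 (0.0945), Lo19S DMSO replicate 2 (0.0852), control bortezomib replicate 3 (0.0505) or Lo19S bortezomib replicate 3 (0.0686). Responses were higher in Lo19S cells for DNAJC28 (0.85, SE 0.28, adjusted p = 0.0185), DNAJC14 (0.34, SE 0.084, adjusted p = 0.00164), DNAJA3 (0.28, SE 0.059, adjusted p = 0.000203) and DNAJC10 (0.23, SE 0.069, adjusted p = 0.00993). The DNAJC28 call was lost with DESeq2 (0.114) and without Lo19S bortezomib replicate 3 (0.112), and that of DNAJC10 without Lo19S DMSO replicate 1 (0.0509).

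The other 4 calls were small. DNAJC21 differed by 0.20 (SE 0.068, adjusted p = 0.0187) and was lost without Lo19S DMSO replicate 1 (0.0567), control bortezomib replicate 3 (0.0584) or Lo19S bortezomib replicate 3 (0.0791). DNAJC5 differed by 0.19 (SE 0.068, adjusted p = 0.0257) and was lost without Lo19S DMSO replicate 2 (0.0525) or 3 (0.0582), control bortezomib replicate 3 (0.114) or Lo19S bortezomib replicate 2 (0.0898). DNAJC2 differed by -0.22 (SE 0.079, adjusted p = 0.036) and was lost without control DMSO replicate 1 (0.0555) or 3 (0.0658), Lo19S DMSO replicate 3 (0.162), control bortezomib replicate 3 (0.128) or Lo19S bortezomib replicate 1 (0.123). DNAJC1 differed by -0.29 (SE 0.11, adjusted p = 0.0444) and was kept when control DMSO replicate 1 or 2 or Lo19S bortezomib replicate 2 was left out, and lost without each of the other 9 libraries (0.051 to 0.137). With DESeq2 the calls of DNAJC5 (0.0551), DNAJC2 (0.0759) and DNAJC1 (0.136) were lost, and DNAJC1 was lost with a replicate block (0.0569). DNAJC2 and DNAJC1 were lost with library totals (-0.12, 0.255 and -0.20, 0.185) and with no filter on low counts (0.0693 and 0.152). With library totals 10 members had a higher and 9 a lower response, and without control DMSO replicate 3 there were 9 of each.

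**Figure D5:**
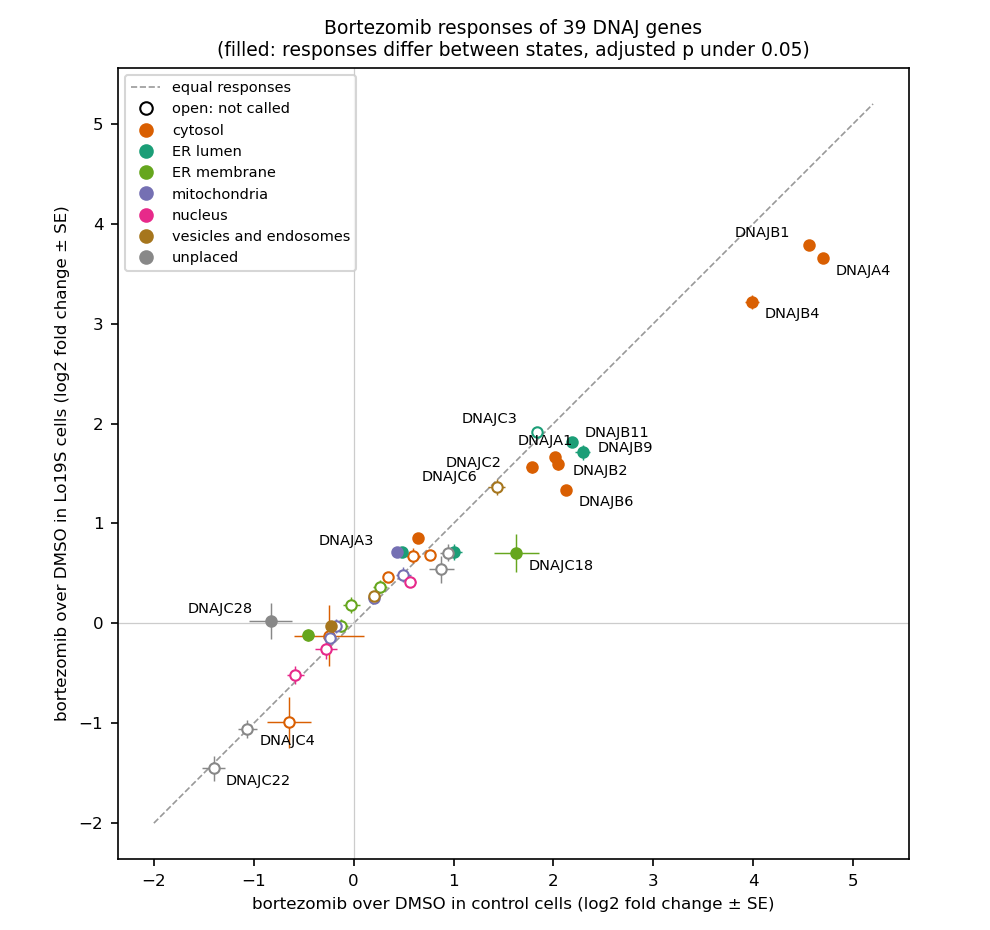
Each point gives the log2 fold change of 1 of the 39 DNAJ genes with bortezomib over DMSO in Lo19S cells (vertical) against that in control cells (horizontal), with SE bars, coloured by compartment, and filled where the responses differed between states at an adjusted p under 0.05. The raised cytosolic genes DNAJA4, DNAJB1, DNAJB4, DNAJB6, DNAJA1 and DNAJB2 lie below the dashed line of equal responses, DNAJC3 lies close to it, and DNAJA3, DNAJC14 and DNAJC28 lie above it.

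The chaperones and factors that J proteins work with gave the setting for these values. Of 34 such genes, 27 rose and 2 fell with bortezomib in Lo19S cells (median 0.84) and 31 rose and 2 fell in control cells (median 1.05). Over all genes tested, 37.8% rose and 39.7% fell in Lo19S cells, and 39.2% rose and 42.2% fell in control cells. All 7 cytosolic HSP70 genes rose in each state, and in 6 of them the response was lower in Lo19S cells. HSPA6, a strictly stress-induced HSP70, was at 76.2, 83.8 and 77.5 CPM in Lo19S cells and 382, 394 and 389.9 CPM in control cells with bortezomib, and at most 1.496 CPM in any DMSO library. Its response was 6.70 (SE 0.14) in Lo19S cells and 9.05 (SE 0.10) in control cells, a difference of -2.35 (SE 0.43, adjusted p = 3.67e-05). The approximate SE of each response is too small here, since HSPA6 was near 0 with DMSO. Between the states with DMSO its SE was 0.405. HSPA1A and HSPA1B, the near-identical inducible HSP70 genes whose reads cannot be told apart with certainty, differed by -1.01 (SE 0.064) and -1.10 (SE 0.07). The exchange factor BAG3, which sends HSP70 clients to autophagy, was at 679.7, 647 and 642 CPM in Lo19S cells and 2004, 2014 and 1974 CPM in control cells with bortezomib, and differed in response by -1.96 (SE 0.064, adjusted p = 2.83e-28). The lumenal HSPA5 responded more in Lo19S cells, by 0.36 (SE 0.045, adjusted p = 1.39e-08). Its level was already lower in Lo19S cells with DMSO (-0.27, SE 0.033, adjusted p = 5.5e-09), at 488 ± 11.95 CPM against 590 ± 27.8 CPM in control cells. With bortezomib it averaged 7756 ± 85.0 CPM in Lo19S cells and 7293 ± 88.3 CPM in control cells (SD, n = 3 each). HSPA9, singled out as the mitochondrial partner after its values were seen, did not differ in response by the test (-0.04, SE 0.045, adjusted p = 0.512). Over all 34 genes the response was lower in 19 and higher in 2, against 13.4% and 14.4% of all genes tested. The 2 were HSPA5 and STUB1, a ubiquitin ligase of HSP70 clients, the latter at 0.21 (SE 0.08). With DMSO 6 of the 34 were higher and 6 lower in Lo19S cells, against 11.7% higher and 13.0% lower of all genes tested. In that comparison HSF1, the master heat shock factor, was at 0.12 (SE 0.054, adjusted p = 0.0891).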

How the data were processed

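RNA was extracted with TRIzol from 12 libraries of T47D cells in 4 groups of 3 and sequenced after poly(A) selection with a stranded kit, per the labels' protocols. The deposited values are raw read counts per gene. STAR 2.5.4b, featureCounts 1.6.1 and the build GRCh37 are named in the submitters' processing notes; how featureCounts handled strand and reads with several matches is not given in the sources used here. GENCODE release 29, of another build, served only for biotype, transcript length and exon overlap, and RefSeq for promoters.

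The counts were fitted in R 4.3.3 with edgeR 4.0.16 (TMM scaling, filterByExpr by group with a minimum count of 10, robust quasi-likelihood test) in 1 model of the 4 groups with 8 residual degrees of freedom. Of 57773 genes 14714 were tested in 5 comparisons, and genes with a Benjamini-Hochberg adjusted p under 0.05 over all tested genes were called. Every adjusted p in the text is from this edgeR test unless DESeq2 is named. It comes from the main model, or from the alternative fit where one is named beside it. Changes are log2 fold changes, and their SE is approximate, from the fold change and its F statistic. For large changes from levels near 0, as in HSPA6, this SE can be too small. Levels are TMM-scaled CPM, per kb where genes are compared, with the length of the principal transcript. The fit was also run on simulated data, and that outcome is not reported here. Alternatives were other scaling, no filter, DESeq2 1.42.0, a replicate block, leaving out each library and fitting only the groups compared.

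Members, gene lists and tests were chosen with earlier results of these data known. Values in every library are given for the 19 members that, in at least 1 comparison, were called and among the 4 largest rises or the 4 largest falls of the members. Of the listed marker genes 1, PECAM1, was not matched. Library totals of 7376597 to 15003480 counts limit the precision for members with few counts, such as DNAJB5, DNAJC12, DNAJC18 and DNAJC28.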

Additional observations from a re-analysis of the deposited data

Results flagged for a closer look

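By the test of the difference itself, the response to bortezomib differed between the states for 17 of the 39 members. The background was 27.8% of all genes (14.4% higher and 13.4% lower). The difference is given here as the log2 response in Lo19S cells minus that in control cells. In the cytosol it was -1.05 for DNAJA4, -0.79 for DNAJB6, -0.77 for DNAJB1, -0.77 for DNAJB4, -0.46 for DNAJB2, -0.35 for DNAJA1, -0.22 for DNAJC2 and 0.2 for DNAJC21. In the ER lumen it was -0.58 for DNAJB9, -0.37 for DNAJB11, -0.29 for DNAJC1 and 0.23 for DNAJC10. At the ER membrane it was -0.92 for DNAJC18 and 0.34 for DNAJC14. For the mitochondrial DNAJA3 it was 0.28, for the vesicle protein DNAJC5 0.19, and for the unplaced DNAJC28 0.85. The calls of DNAJC1, DNAJC2, DNAJC5, DNAJC18 and DNAJC28 were lost with DESeq2. Those of DNAJC10 and DNAJC21 were lost when certain libraries were left out.

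Rows outside the family rule also rose with bortezomib. The processed pseudogene DNAJB1P1 rose by 3.2 in Lo19S cells (19 counts in bortezomib libraries, against 2 in DMSO libraries) and by 4.17 in control cells (45 counts, against 3). The ratios were 11 (95% interval 2.65 to 97.1) in Lo19S cells and 20.4 (6.55 to 103) in control cells, which cover counting error only. DNAJA1P3 rose by 1.71 in Lo19S cells (49 counts, against 17) and by 2.44 in control cells (69 counts, against 17). DNAJB6P1 rose by 1.3 in Lo19S cells (37 counts, against 17) and by 1.79 in control cells (49 counts, against 19). These pseudogenes resemble DNAJB1, DNAJA1 and DNAJB6, which rose too, and whether their reads came from those genes was not tested. Of the 2 antisense rows named DNAJC9-AS1, ENSG00000227540 rose by 0.33 in control cells, and in Lo19S cells its change was 0.18 (adjusted p = 0.26). The other, ENSG00000236756, had 4, 0 and 3 counts in Lo19S cells and 1, 4 and 1 in control cells with bortezomib, and 5, 6 and 5 in Lo19S cells and 4, 2 and 5 in control cells with DMSO, and was not tested.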

How the results depend on the processing

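Directions changed in 7 values, all when libraries were scaled by their totals alone. In Lo19S cells the bortezomib response turned to -0.0337 for DNAJC11, -0.0118 for DNAJC13 and -0.10 for DNAJC16. In control cells it turned to -0.0362 for DNAJA2, -0.12 for DNAJB14, -0.18 for DNAJC11 and -0.18 for DNAJC13. In control cells DNAJC11 (adjusted p = 0.0019) and DNAJC13 (7.81e-05) were then called lower instead of higher. That scaling moved the median of all genes by -0.29 in Lo19S cells and -0.38 in control cells, and the cause of the changes was not tested. It also gave 4 members higher in Lo19S cells with DMSO, 10 lower with bortezomib in Lo19S cells, 14 higher in Lo19S cells with bortezomib and 10 with a higher response. Under DMSO, 4 members were lower with DESeq2 and 5 when only the compared groups were fitted. Leaving out 1 library gave 2 to 4 members higher and 3 to 10 lower under DMSO. With a replicate block, 35 of the calls with bortezomib in control cells were kept and DNAJC30 was lost (-0.18, adjusted p = 0.0522), DNAJC19 was lost in Lo19S cells (-0.14, 0.0627), DNAJC1 was lost for the difference of responses (-0.28, 0.0569), and no other call changed. Pairing by replicate number was checked with 18 correlations between deviations of same-numbered libraries. They ran from -0.07 to 0.03, 0 were over 0.1, and 9 were the highest for their library. Within a state, every same-numbered pair of bortezomib and DMSO libraries was the highest, at 0.0065 to 0.0256. Values this small do not settle whether the replicates were paired. Other alternatives kept the direction of every member called. Besides the 7 values that changed direction, 118 lost and 42 gained a call. Members with few counts, such as DNAJB5 at 13 to 52 per library, allow only large differences to be detected at this depth.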

Other observations

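Transcripts named after members did not all follow their neighbours. DNAJC3-DT, a long noncoding RNA named as divergent from DNAJC3, averaged 4.87 ± 0.78 CPM in Lo19S cells and 3.27 ± 0.56 CPM in control cells with bortezomib, and 6.26 ± 0.44 CPM in Lo19S cells and 5.503 ± 0.14 CPM in control cells with DMSO (SD, n = 3 each). It fell with bortezomib by 0.36 in Lo19S cells (SE 0.16, adjusted p = 0.0398 in edgeR) and 0.76 in control cells (SE 0.19, adjusted p = 0.000277 in edgeR), whereas DNAJC3 rose. DNAJC27-AS1, antisense to DNAJC27, was at 0.96, 0.44 and 0.36 CPM in Lo19S cells and 0.37, 0.45 and 0.12 CPM in control cells with bortezomib. In DMSO libraries it stood at 1.36, 0.77 and 1.39 CPM in Lo19S cells and 1.06, 0.84 and 0.93 CPM in control cells. In Lo19S cells 1 bortezomib library lay within the range of the DMSO libraries and the other 2 lay below it, and in control cells all bortezomib libraries were lower. It fell by 1.06 in Lo19S cells (adjusted p = 0.0245 in edgeR) and 1.56 in control cells (adjusted p = 0.00705 in edgeR), at few counts, and the difference between the states was not called (adjusted p = 0.655).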
